A study of Pyrocoelia pectoralis with 6 samples.

Results

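Small lipophilic ligand carriers are proteins that hold fatty acids, sterols, vitamins, pigments or hormones in a pocket and move them through water-filled spaces. Here they were 77 of the 12533 genes in the expression table of Pyrocoelia pectoralis, a firefly. These genes were chosen by the words of their descriptions, with earlier results of these data known. They fell into 5 families: 21 genes of the takeout family (described as daywake or takeout), 46 of the CRAL-TRIO family (clavesin, alpha-tocopherol transfer protein and retinaldehyde-binding protein), 2 fatty acid-binding proteins, 4 lipocalins (apolipoprotein D), and 4 genes for NPC proteins and the ecdysteroid-regulated 16 kDa protein, ESR16. RNA was measured in males, in 3 libraries of the light-making luminous organ and in 3 of a non-luminous organ. What the non-luminous organ is, where in the body it lies, how old the animals were and whether each library is a different animal or a pool are all unstated in the labels. P-values therefore measure library-to-library spread, part of which may be technical. Values are FPKM, reads scaled by gene length and by the depth of the library. Library totals, recovered from the spacing of low FPKM values, were 18.04 to 20.42 M reads. The luminous label was checked with a luciferin 4-monooxygenase gene, RI129_003463, which averaged 399 ± 122 FPKM there and 0.474 ± 0.139 FPKM in the other organ (SD, n = 3).

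Each family carries its ligand differently. Takeout proteins are secreted and related to the juvenile hormone-binding proteins of moths. In Drosophila, takeout acts in feeding and male courtship and daywake in daytime sleep. CRAL-TRIO proteins are cytosolic, and their vertebrate namesakes carry vitamin E (alpha-tocopherol transfer protein) or retinal (retinaldehyde-binding protein). Fatty acid-binding proteins shuttle fatty acids inside the cell, and apolipoprotein D is a secreted lipocalin with a barrel-shaped pocket. NPC2 hands sterols to NPC1 in the lysosome, and ESR16 belongs to the same lipid-binding domain family as NPC2. Descriptions rest on similarity to proteins of other species, so a name gives a family rather than a ligand.

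Most carriers that changed were higher in the luminous organ. Of the 77 genes, 66 passed a minimum mean of 1 FPKM over the 6 libraries and were tested. In limma's fit across all genes, with Benjamini-Hochberg adjustment and a threshold of 0.05, 24 of them were higher in the luminous organ, 11 were lower and 31 were not called. The share called higher was 36.4% of the tested carriers, against 9.63% of all 9863 tested genes. The share called lower was 16.7%, against 17.0% of all tested genes. The median log2 difference (non-luminous subtracted from luminous, in log2(FPKM + 1) units, where changes of low genes appear too small) was 0.65 over the carriers and -0.09 over all tested genes. Values of the 2 organs did not overlap for 29 carriers that were higher and 13 that were lower, where 17.4% and 28.7% of all tested genes did so. Of the 24 higher carriers, 19 differed by at least 1 on the log2 scale, and of the 11 lower carriers 8 did. In whole organs, fewer cells of a type and less RNA per cell cannot be told apart.

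**Figure D1:**
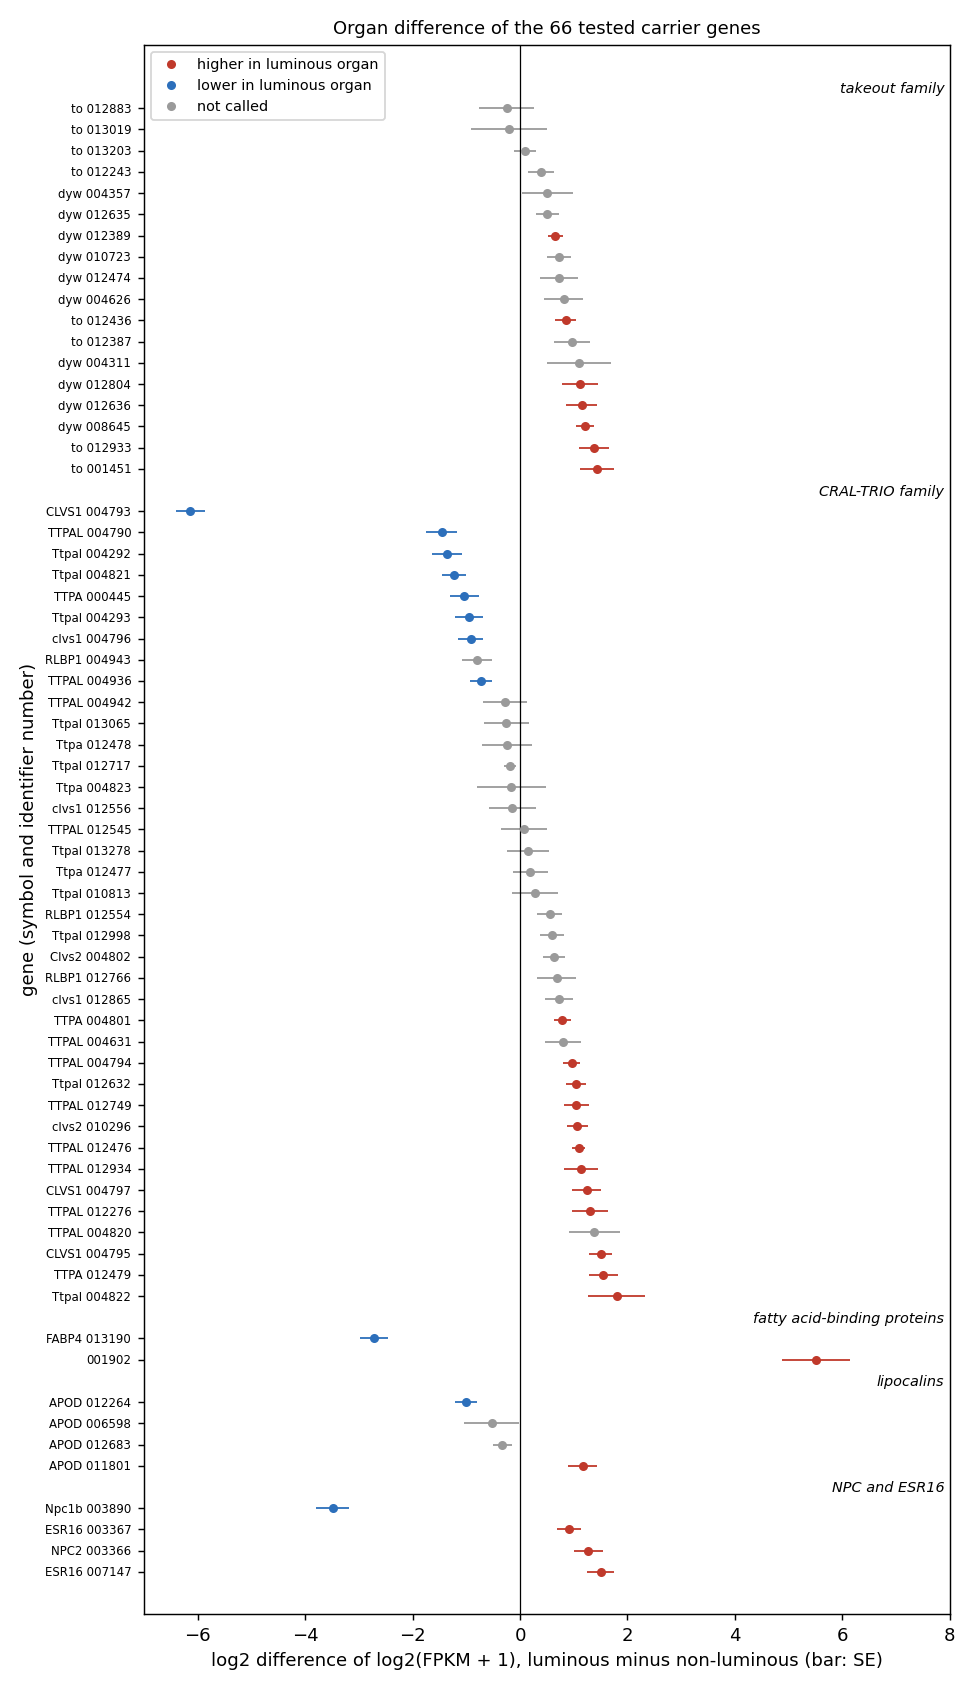
Each point is 1 of the 66 tested carrier genes, grouped by family, with its log2 difference on the horizontal axis (non-luminous subtracted from luminous, log2(FPKM + 1) units) and a bar for the standard error. Red marks the 24 genes called higher, blue the 11 called lower and grey the 31 not called. No takeout gene is blue, and CLVS1 RI129_004793 at -6.14 and RI129_001902 at 5.51 lie farthest out.

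The number called depended on single libraries. It was 14 higher and 8 lower without non-luminous replicate 1, 9 and 5 without non-luminous replicate 3, and 15 and 9 without luminous replicate 3. All genes fell in parallel, to 5.59%, 3.62% and 5.91% called higher. The carriers stood at 21.5%, 14.1% and 23.1%. The split also moved with scaling: of the carriers' calls, 68.6% were higher with FPKM unscaled, 74.3% with median-of-ratios factors and 80.0% with quantile normalization. For all genes these shares were 36.2%, 46.3% and 53.8%, and with quantile normalization the all-gene median difference went from -0.095 to 0.074.

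The takeout family had calls in 1 direction. Of 18 tested members 7 were higher in the luminous organ (38.9%, against 9.63% of all tested genes), 0 were lower (against 17.0%) and 11 were not called. Among these 11 the differences ran from -0.25 to 1.10, with 9 of 11 above 0. At an unadjusted p under 0.05 limma also found 0 lower members, and voom called 0 lower. The summed level of the 21 genes was 1226 ± 315 FPKM in the luminous and 569 ± 71.2 FPKM in non-luminous libraries (SD, n = 3). The count of higher members was 1 without non-luminous replicate 3, 2 without non-luminous replicate 1, 4 without luminous replicate 3 and 12 without luminous replicate 1.

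The daywake gene dyw RI129_008645 was the most abundant of the family in both organs. It stood at 467, 425 and 599 FPKM in luminous replicates 1, 2 and 3, and at 225, 235 and 182 FPKM in the non-luminous replicates. The organs did not overlap, and luminous replicate 3 was the highest. It differed by 1.21 in log2 units (SE 0.166, limma adjusted p = 0.00367) and was called under all 15 alternatives. It carried 40.6% of the family's summed FPKM in the luminous organ and 37.6% in the other. The 10 tested daywake genes all had differences above 0, and 4 of them were called higher. Of all 9863 tested genes, 4089 had differences above 0 and 9.63% were called higher. Values of the 2 organs did not overlap for 5 of the 10 daywake genes, all of them higher, and for 17.4% of all tested genes in that direction. In either direction, 46.1% of all tested genes did not overlap. Of the 4 called, only RI129_008645 held under all 15 alternatives, and dyw RI129_012804 was called under 6 of 15.

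A second daywake gene, dyw RI129_012636, stood at 96.7, 131 and 219 FPKM in the luminous libraries and at 59.8, 75.9 and 55.0 FPKM in the others (log2 difference 1.15, SE 0.286, limma adjusted p = 0.0247). Another, dyw RI129_012389, was more abundant but changed less, at 189.6, 145 and 189 FPKM against 112, 120.1 and 97.1 FPKM (0.66, SE 0.146, limma adjusted p = 0.0163). In both, every luminous library lay above every non-luminous one. Both calls were lost without non-luminous replicate 1 or 3, and that of RI129_012389 also without luminous replicate 3 (adjusted p up to 0.0944 and 0.0681 over all alternatives).

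Among genes described as takeout, to RI129_001451 had the largest difference. It stood at 105, 110 and 253 FPKM in the luminous libraries and at 49.6, 54.7 and 52.9 FPKM in the non-luminous ones (log2 difference 1.43, SE 0.315, limma adjusted p = 0.0161). The non-luminous libraries were close together, and luminous replicate 3 stood far above the other 2 luminous libraries. The call was lost without non-luminous replicate 1 or 3 (adjusted p up to 0.0606). The gene to RI129_012933 stood at 22.2, 33.7 and 50.9 FPKM against 14.1, 11.7 and 11.7 FPKM (1.37, SE 0.278, limma adjusted p = 0.0125), and its call was lost without non-luminous replicate 3 (adjusted p = 0.054).

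Of the 3 takeout family genes too low to test, to RI129_012391 had 16 reads in the luminous libraries and none in the others. Its mean of 0.367 FPKM was at least 4.93-fold higher than what 3 reads in the summed non-luminous libraries would give, a floor for counting error only. The daywake gene dyw RI129_004356 was listed at 0 in 5 libraries and at 0.15 FPKM in non-luminous replicate 3. Across the 77 genes, the filter left out TTPAL RI129_007611 with a mean of 0.73 FPKM and TTPAL RI129_012935 with 0.71 FPKM. It kept Ttpal RI129_013278 with 1.05 FPKM and APOD RI129_006598 with 1.07 FPKM. In all, 11 carriers were too low, with organ means of at most 1.03 FPKM.

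**Figure D2:**
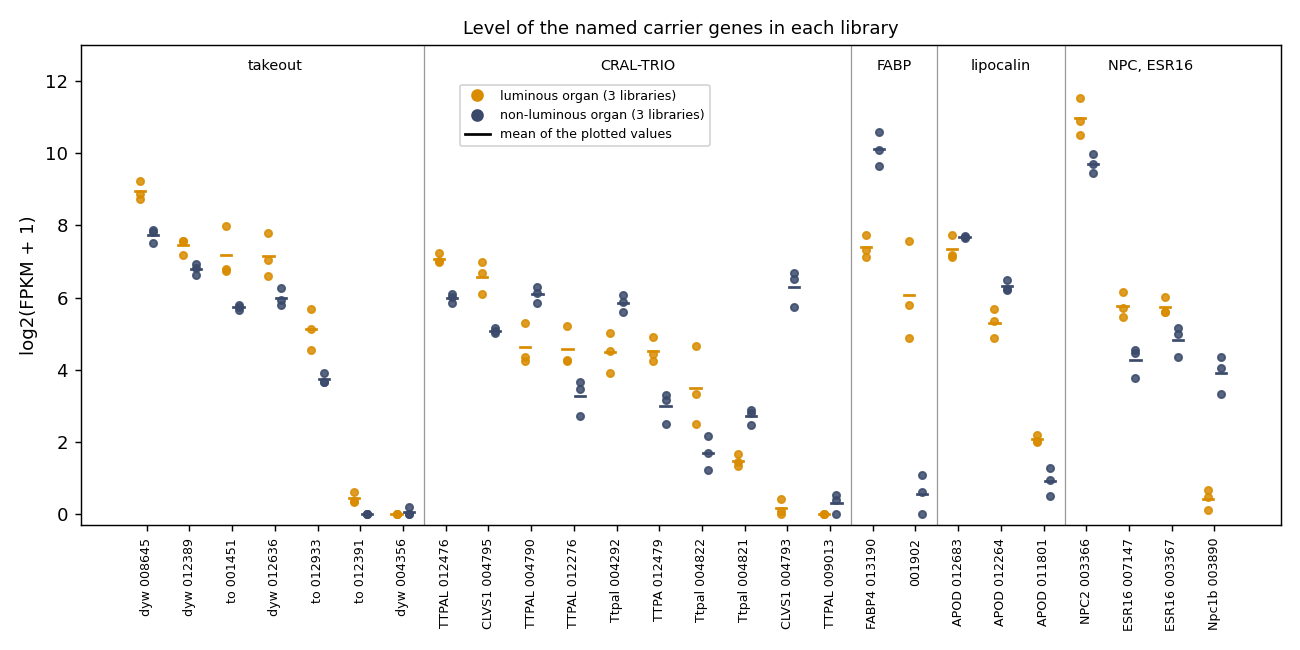
Levels of 26 carrier genes in the 6 libraries, as log2(FPKM + 1), with luminous libraries in orange, non-luminous in dark blue and short lines for the mean of each 3. Columns give the gene symbol and identifier number, ordered within each family by luminous level. The 5 tested takeout genes shown are higher in the luminous organ, while CLVS1 RI129_004793, FABP4 RI129_013190 and Npc1b RI129_003890 are far lower.

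The CRAL-TRIO family had calls in both directions. Of 38 tested members 12 were higher (31.6%, against 9.63% of all tested genes), 8 were lower (21.1%, near the 17.0% of all tested genes) and 18 were not called. Their summed level was 694 ± 24.5 FPKM in the non-luminous organ and 779 ± 91.3 FPKM in the luminous one (46 genes, SD, n = 3). Higher members differed by 0.79 to 1.80 on the log2 scale and lower ones by -0.72 to -6.14. Genes described as clavesin, alpha-tocopherol transfer protein and retinaldehyde-binding protein contributed 3, 9 and 0 of the higher calls and 2, 6 and 0 of the lower ones, among 8, 27 and 3 tested. Higher members fell to 6 and lower ones to 2 without non-luminous replicate 3. Lower members numbered 5 without non-luminous replicate 1, non-luminous replicate 2 or luminous replicate 3, and 5 with quantile normalization or a minimum of 5 FPKM.

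CLVS1 RI129_004793 showed the largest difference of any carrier. In vertebrates, clavesin-1 is a lipid-binding protein of clathrin-coated vesicles in nerve cells. The gene stood at 89.8, 52.5 and 101 FPKM in non-luminous replicates 1, 2 and 3, and at 0, 0.341 and 0.0613 FPKM in the luminous replicates. It ranked 1484 by mean FPKM among all genes of the non-luminous organ and was nearly absent from every luminous library. Its 3863 non-luminous reads compared with 7 luminous reads, a 605-fold ratio of mean FPKM. The log2 difference was -6.14 (SE 0.273, limma adjusted p = 5.61e-05). It was called under all 15 alternatives, with a difference from -4.02 to -9.62 over them.

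The gene lies in a stretch of 8 CRAL-TRIO genes with closely spaced identifiers, RI129_004790 to RI129_004802, in which 4 were higher, 3 lower and 1 not called. The table gives no gene positions, so neighbouring identifiers stand in for neighbouring genes. CLVS1 RI129_004795 stood at 102, 66.9 and 125 FPKM in the luminous libraries and at 31.4, 34.7 and 32.5 FPKM in the others (log2 difference 1.5, SE 0.217, limma adjusted p = 0.00426). TTPAL RI129_004790 went the other way, at 17.9, 38.5 and 19.5 FPKM against 56.5, 69.2 and 77.6 FPKM (-1.46, SE 0.284, limma adjusted p = 0.0109). Its call was lost without non-luminous replicate 3 (adjusted p = 0.0514). The organs did not overlap for any of the 8 genes, including Clvs2 RI129_004802, which was not called (0.63, limma adjusted p = 0.0636). Non-overlap was common at large: 17.4% of all tested genes did not overlap and were higher, and 28.7% did not overlap and were lower. Calls covered 9.63% of all tested genes as higher and 17.0% as lower.

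The summed level of these 8 genes was close in the organs, 265 ± 39.5 FPKM in the luminous and 282 ± 19.4 FPKM in the non-luminous organ, and the makeup of the sum differed. CLVS1 RI129_004793 held 28.5% ± 7.44 of it in the non-luminous organ and 0.0555% ± 0.0795 in the luminous organ. CLVS1 RI129_004795 held 11.7% ± 1.31 and 36.5% ± 6.74, and TTPA RI129_004801 held 12.4% ± 2.95 and 22.8% ± 0.938, in that order (SD, n = 3). Coding lengths read from the FPKM steps were alike, 801 to 918 bases. Genes of such a stretch may be similar copies, and how reads were divided between them is not known.

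**Figure D3:**
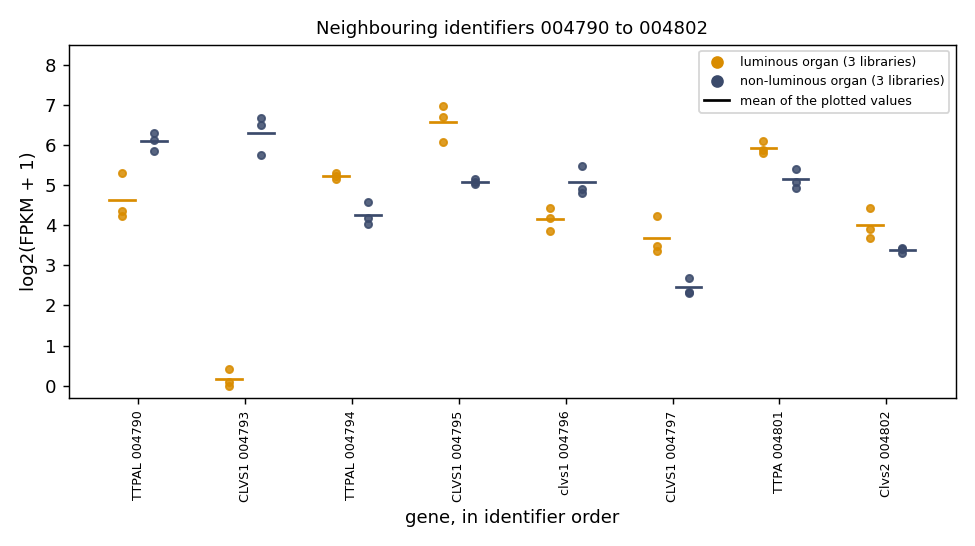
The 8 CRAL-TRIO genes from RI129_004790 to RI129_004802 in identifier order, as log2(FPKM + 1), with 3 luminous libraries in orange, 3 non-luminous in dark blue and a line for each mean. CLVS1 RI129_004793 is near 0 in the luminous organ, and its neighbours TTPAL RI129_004794 and CLVS1 RI129_004795 are higher there than in the non-luminous organ.

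A second stretch, RI129_004820 to RI129_004823, also held both directions at lower levels. Ttpal RI129_004821 stood at 1.71, 2.20 and 1.53 FPKM in the luminous organ against 4.55, 6.36 and 6.0 FPKM (log2 difference -1.23, SE 0.218, limma adjusted p = 0.00798). The next gene, Ttpal RI129_004822, stood at 4.70, 9.05 and 24.3 FPKM against 1.35, 2.24 and 3.48 FPKM (1.80, SE 0.526, limma adjusted p = 0.041). The luminous libraries of RI129_004822 were widely spread, and its call was lost in 9 of 15 alternatives (adjusted p 0.00945 to 0.132).

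In all, 45 of the 77 carriers lay in 14 stretches of identifiers no more than 10 apart, and 10 of the 14 held 1 family only. The 2 stretches above were the ones with calls in both directions. The other 12 stretches held calls in 1 direction or none. RI129_004292 and RI129_004293 (both Ttpal) were both lower, the second with its call lost under several alternatives, and NPC2 RI129_003366 and ESR16 RI129_003367 were both higher.

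In a stretch without mixed calls, TTPAL RI129_012476 was the CRAL-TRIO gene with the highest mean over the 6 libraries. It stood at 125, 128 and 149.8 FPKM in the luminous organ and at 63.6, 67.7 and 56.9 FPKM in the other (log2 difference 1.09, SE 0.122, limma adjusted p = 0.00206), and was called under all 15 alternatives. TTPA RI129_012479, close by, stood at 18.1, 20.6 and 29.0 FPKM against 8.97, 7.89 and 4.61 FPKM (1.55, SE 0.268, limma adjusted p = 0.00751). Both were higher in 3 of 3 luminous libraries than in any non-luminous one. TTPAL RI129_012276 was higher by 1.30 (limma adjusted p = 0.0266), a call lost when luminous replicate 3 or non-luminous replicate 2 or 3 was left out, and with the replicate number as a block. Ttpal RI129_004292 was lower, at 22.1, 31.4 and 14.2 FPKM against 47.4, 66.5 and 57.4 FPKM (-1.36, limma adjusted p = 0.0121), a call lost without non-luminous replicate 3 (adjusted p = 0.052). TTPAL RI129_009013 was listed at 0 in all 3 luminous libraries and in non-luminous replicate 3, and at 0.317 and 0.455 FPKM in non-luminous replicates 1 and 2. The 3 tested genes named for retinaldehyde-binding protein had no call from limma or voom, with 1 higher and 1 lower at an unadjusted p under 0.05 in limma, and the summed level of all 4 was 46.2 ± 15.0 against 52.6 ± 10.4 FPKM.

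The 2 fatty acid-binding protein genes moved in opposite directions. FABP4 RI129_013190, described by the adipocyte form of mammals, stood at 139.7, 210.2 and 157 FPKM in the luminous and at 1091, 802 and 1528 FPKM in the non-luminous organ. All luminous libraries lay far below the non-luminous ones. The log2 difference was -2.72 (SE 0.254, limma adjusted p = 0.00101), a 6.76-fold ratio of means, and it was called under all 15 alternatives. By mean FPKM the gene ranked 98 among all genes of the non-luminous organ and 656 in the luminous organ.

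The other gene, RI129_001902, has no symbol and was described by a protein of a mite, Tyrophagus putrescentiae. It stood at 189, 54.4 and 28.4 FPKM in luminous replicates 1, 2 and 3, and at 0.544, 0 and 1.14 FPKM in the non-luminous replicates. Luminous replicate 1 was the highest by far, and every luminous library lay well above every non-luminous one. The log2 difference was 5.51 (SE 0.639, limma adjusted p = 0.00222), from 2119 luminous and 12 non-luminous reads. The call was lost with voom on recovered reads (adjusted p = 0.0947, range 0.000495 to 0.0947). The table described 1 other gene by a protein of this mite, a troponin C gene, RI129_009881, with 112, 54.7 and 30.8 FPKM in the luminous and 94.0, 71.9 and 119.9 FPKM in the non-luminous organ (not called, limma adjusted p = 0.271).

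Together the pair summed to 259 ± 71.9 FPKM in the luminous and 1141 ± 366 FPKM in non-luminous libraries (SD, n = 3). RI129_001902 and FABP4 RI129_013190 had coding lengths of 390 and 408 bases. Genes of the fat body, where fatty acids are stored, and of muscle were checked beside the pair. Of 4 tested fat body markers, 3 apolipophorins were lower and a hexamerin was higher. All 5 in the list summed to 171 to 309 FPKM in the luminous libraries against 363 to 379 FPKM. The untested one, yl RI129_003215, was matched by the word vitellogenin but is described as a putative vitellogenin receptor (0.921 against 0.718 FPKM). Of 13 muscle markers 8 were higher and 0 lower, and they summed to 55861 to 61636 FPKM against 22624 to 29523 FPKM. None of these markers was at 0 throughout an organ, and their part in the differences of the pair was not tested.

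NPC2 RI129_003366, the soluble sterol-binding partner of NPC1, was the most abundant carrier of the luminous organ, and in the non-luminous organ FABP4 RI129_013190 lay above it. NPC2 stood at 1451, 1882 and 2957 FPKM in the luminous and at 834, 1001 and 693 FPKM in the non-luminous organ. The organs did not overlap. It differed by 1.27 in log2 units (SE 0.271, limma adjusted p = 0.0149) and ranked 48 among all luminous genes and 144 among non-luminous ones. The call was lost without non-luminous replicate 1 or 3 (adjusted p up to 0.0644). It held 37.9%, 44.5% and 49.4% of the summed FPKM of all 77 carriers in luminous replicates 1, 2 and 3, and 23.7%, 28.4% and 18.5% in the non-luminous replicates. Summed without it, the carriers stood at 2374, 2344 and 3025 FPKM against 2679, 2518 and 3053 FPKM, which overlapped. These sums still include FABP4 RI129_013190, at 139.7, 210.2 and 157 FPKM in the luminous and 1091, 802 and 1528 FPKM in the non-luminous libraries. The overlap therefore does not show that the remaining carriers were level between the organs.

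Both ESR16 genes, named for a secreted protein that responds to moulting hormone in the tobacco hornworm, were higher. ESR16 RI129_007147 stood at 69.8, 42.9 and 51.2 FPKM against 12.6, 21.1 and 22.5 FPKM (log2 difference 1.5, SE 0.258, limma adjusted p = 0.00729), and was called under all 15 alternatives. ESR16 RI129_003367 stood at 47.8, 47.5 and 64.1 FPKM against 34.5, 31.0 and 19.6 FPKM (0.91, SE 0.227, limma adjusted p = 0.0251). Its call was lost when luminous replicate 3 or non-luminous replicate 2 or 3 was left out, and with the replicate number as a block.

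Npc1b RI129_003890 went the other way. It was caught by the word rule but codes for a large membrane protein, not a small carrier, with a coding length of 3507 bases. In Drosophila, Npc1b takes up dietary sterol in the midgut. It stood at 0.598, 0.0838 and 0.391 FPKM in the luminous and at 19.3, 9.03 and 15.7 FPKM in the non-luminous organ (log2 difference -3.49, SE 0.309, limma adjusted p = 0.00084), and was called under all 15 alternatives. Markers of the midgut moved with it: of 75 tested genes named for trypsin, chymotrypsin, carboxypeptidase or peritrophin, 38 were lower and 6 higher. The summed level of all 128 was 2314 to 3326 FPKM in the luminous libraries and 6856 to 8619 FPKM in the non-luminous ones, and 20 of them were at 0 in every luminous library. A chymotrypsin gene, RI129_002540, made up 43.2% of the non-luminous sum and 0.0282% of the luminous one. Without it the sums were 2313 to 3324 FPKM against 4209 to 5005 FPKM. The word match also took in protease inhibitors and carboxypeptidases of other tissues. Their part in the difference of Npc1b, or of any other carrier, was not tested.

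The lipocalins were split. APOD RI129_012683, the most abundant, stood at 144, 138 and 213 FPKM against 200.5, 208 and 203 FPKM, with overlapping values and no call (log2 difference -0.33, SE 0.172, limma adjusted p = 0.199). Leaving out luminous replicate 3, the highest, brought it to -0.52 and an adjusted p of 0.0268, with 0.411 as the highest over all alternatives. APOD RI129_012264 was lower, at 28.5, 50.1 and 40.1 FPKM against 72.8, 88.0 and 75.0 FPKM (-1.0, SE 0.204, limma adjusted p = 0.0125). APOD RI129_011801 was higher but scarce, at 3.04, 3.62 and 3.08 FPKM against 1.44, 0.918 and 0.431 FPKM (1.17, SE 0.268, limma adjusted p = 0.0185). The call of RI129_011801 was lost when luminous replicate 3 or non-luminous replicate 2 or 3 was left out.

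The luminous libraries differed among themselves more for these genes than for genes at large. The median SD of log2(FPKM + 1) over the 66 tested carriers was 0.426 in the luminous organ and 0.290 in the non-luminous organ, against 0.238 and 0.170 over all tested genes. Luminous replicate 3 held the highest luminous value for 20 of the 24 higher carriers (83.3%), against 55.3% of the 950 genes called higher overall. For the 11 lower carriers luminous replicate 2 was the highest in 9 (81.8%), and the share among all genes called lower was not counted. Over all 66 tested carriers the highest luminous library was replicate 3 for 36, replicate 2 for 22 and replicate 1 for 8. Over all 9863 tested genes the shares were 27.0%, 34.4% and 38.6% in the same order. Principal component 2 of all tested genes, with 15.7% of the variance, placed luminous replicate 1 away from the other 2 luminous libraries. Genes described as haemocyte products (hemocytin, phenoloxidase and mostly phenoloxidase-activating proteases) summed to 1036, 1421 and 2015 FPKM in luminous replicates 1, 2 and 3, and to 1194, 1368 and 1243 FPKM in the non-luminous replicates. None of the 22 was at 0 throughout an organ. Their part in the carriers' spread was not tested.

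**Figure D4:**
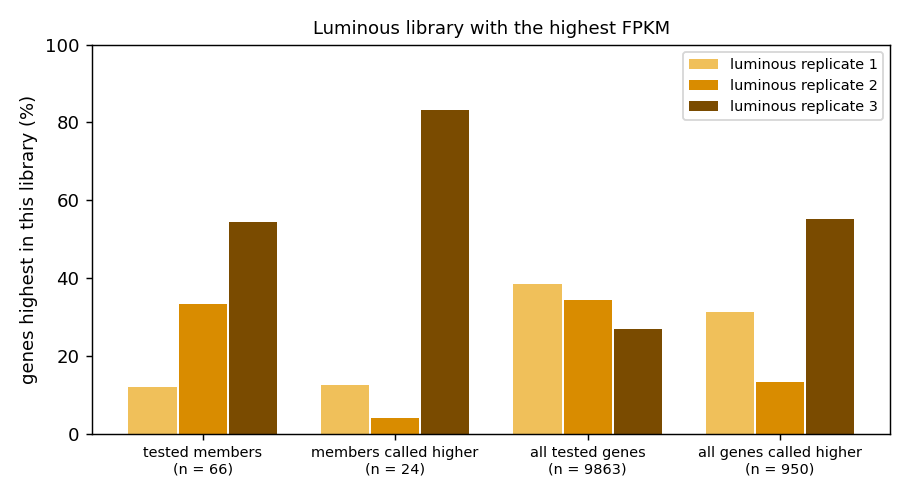
Share of genes, in percent, whose highest luminous FPKM fell in luminous replicate 1, 2 or 3, for the 66 tested carriers, the 24 carriers called higher, all 9863 tested genes and all 950 genes called higher. Replicate 3 is the highest for 83.3% of the higher carriers and for 55.3% of all genes called higher. It is the highest for 54.5% of the tested carriers and for 27.0% of all tested genes.

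Other genes of lipid transport, uptake and storage were counted in the same fit. Of 49 tested genes of this list, 5 were higher (10.2%, against 9.63% of all tested genes), 15 were lower (30.6%, against 17.0%) and 29 were not called, with a median log2 difference of -0.42. The scavenger receptor gene SCARB1 RI129_012746, of a family that takes up lipids and carotenoids, fell from 318 ± 64.3 to 66.2 ± 36.6 FPKM (log2 difference -2.36). A second gene of that name, SCARB1 RI129_002050, was higher, at 367 ± 51.3 against 218 ± 35.1 FPKM (0.75, limma adjusted p = 0.015), a call lost without non-luminous replicate 3 (adjusted p = 0.0534). Lsd-1 RI129_007517, a coat protein of lipid droplets, fell from 279 ± 54.6 to 88.3 ± 13.8 FPKM (-1.64). OSBPL1A RI129_012113, an oxysterol-binding protein, was lower (-1.55), a call lost with 4 single libraries left out in turn (adjusted p up to 0.0831). The endocytic receptor gene Lrp1 RI129_008983 and the fatty acid transporter gene SLC27A4 RI129_005125 each rose by 0.84 (SD, n = 3; limma adjusted p for the other 5 genes 0.00186 to 0.0256). Of the other genes described as scavenger receptor class B member 1, RI129_000371, RI129_007845, RI129_012262 and RI129_012738 were not called. Scarb1 RI129_012620 was too low to test. Of the other genes named SLC27A4, RI129_002146 and RI129_002148 were not called. SLC27A4 RI129_002147 and SLC27A4 RI129_002149 were lower (-1.24 and -1.11, limma adjusted p = 0.0072 and 0.00225). Apart from those of OSBPL1A RI129_012113 and SCARB1 RI129_002050, these calls held under all 15 alternatives.

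Markers of other tissues were counted in the same way. Of all tested genes, 9.63% were higher and 17.0% lower. Of 8 tested nerve genes 2 were higher and 1 lower, and of 20 tested haemocyte genes 2 were higher and 1 lower. For male reproductive tissue, genes were matched by the words tektin, testis or sperm, which may take in genes of other tissues. Of 29 tested, 0 were higher and 6 lower (20.7%), with 0 higher also at an unadjusted p under 0.05 in limma and by voom. For muscle, 0 lower stood likewise under both. Their part in the carriers' differences was not tested.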

How the data were processed

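Messenger RNA was sequenced from 3 luminous and 3 non-luminous organ libraries. The deposited values were FPKM per gene, made by the authors; FPKM is the unit per the file headers, and the submitters' processing notes name Trimmomatic, HISAT2, HTSeq and R 3.2.0, with no role or build. The depth per library was recovered from the FPKM steps: 11780 of 11795 genes examined gave whole reads within 0.05 of a read, on coding lengths. Each gene's step was chosen to make its reads whole, so this count is partly built in. The totals and lengths rest on taking most coding lengths as multiples of 3 bases. Carriers were selected by the words of their descriptions. The members and all gene lists were chosen with earlier results of these data known. Named in each family were the 2 genes with the highest organ mean, up to 4 called genes per direction with the largest difference, genes with no read in an organ, and 3 identifiers given in the selection. A few further genes were named after their values were seen, and 1 gene that the rule for other lipid transport genes would name is not reported here.

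Differences were tested with limma 3.58.1 in R 4.3.3 on log2(FPKM + 1), with a minimum mean of 1 FPKM, an intensity trend and no block, two-sided, with Benjamini-Hochberg adjustment over all 9863 genes. Alternatives were other pseudocounts, filters and scalings, no trend, a replicate block, voom on recovered reads and each library left out. On data simulated for this comparison (9794 genes), limma called 45.0% of 2-fold changes and 83.3% of 4-fold changes. Only 200 genes were changed there, while 2626 of the 9863 tested genes were called in the data. The carriers also varied more between libraries than genes at large, so these shares need not hold for them. Library totals of 18.04 to 20.42 M reads make values under 1 FPKM rest on few reads. No sequences were used.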

Additional observations from a re-analysis of the deposited data

How the results depend on the processing

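Of 343 values of the 23 tested named carriers under 15 alternatives, 309 kept direction and side of the threshold, 33 lost the call, 1 gained it and 0 reversed. Of the 35 carriers called, 13 were called under every alternative. With each library left out in turn, carriers called higher ranged from 9 to 31 and lower from 5 to 11, and all genes called higher from 356 to 956 and lower from 740 to 1709. Such fits have 1 library fewer. Quantile normalization called 1480 of all genes higher, and the cause was not tested. The labels do not say that a replicate number marks a shared animal or batch, so the numbers were not taken as pairs. Deviations of same-numbered libraries from their organ mean had correlations of -0.111, -0.00869 and -0.166. With 3 libraries per organ, these correlations cannot decide whether libraries were paired. With the replicate block, 19 carriers were higher and 10 lower, and 668 and 1328 of all genes. Voom on the recovered reads, whole for 99.87% of the genes examined, called 21 carriers higher and 9 lower, and 878 and 1705 of all genes. Carriers with few reads are limited by depth.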
